A study of Mus musculus with 60 samples.

Results

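The period genes Per1, Per2 and Per3 and the cryptochrome genes Cry1 and Cry2 were followed in mouse kidney through the day, in mice with and without a functional Bmal1 gene in the renal tubule. The members were taken by name, and all 5 were found among the 55335 Ensembl genes of the count files. RNA was sequenced from 60 male mice of C57BL/6J background, with 5 mice in each of 12 groups (2 genotypes at 6 times). The cKOt mice were Bmal1lox/lox/Pax8-rtTA/LC1, and the control mice were their Bmal1lox/lox littermates. Both genotypes received doxycycline (DOX, 2 mg/ml with 20 mg/ml sucrose) in their drinking water for 2 weeks from 8 weeks of age. Thus both carried the lox sites and had received the drug, whereas the controls are labelled without the rtTA and LC1 transgenes. Kidneys were collected some weeks after the end of the DOX treatment, not directly after it. Collection was at ZT0, ZT4, ZT8, ZT12, ZT16 and ZT20 under 12 h of light and 12 h of dark. Zeitgeber time (ZT) 0 is lights on and ZT12 is lights off. The Pax8-rtTA transgene directs the DOX-dependent recombination to tubular epithelium, and the methods describe frozen half-kidneys although the labels name the renal tubule. Vessels, interstitium and immune cells of the sample are outside the reach of that transgene, and fewer cells of a type cannot be told apart from less RNA per cell.

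PER and CRY proteins form the negative limb of the circadian clock. The heterodimer of CLOCK and BMAL1 binds E-box sequences and activates the Per and Cry genes, and the PER and CRY proteins later assemble, enter the nucleus and repress that same heterodimer until they are phosphorylated, ubiquitinated and degraded. PER2 and PER1 act as the scaffold that carries the cryptochromes and casein kinase 1, CRY1 and CRY2 make the contact that silences CLOCK:BMAL1, and PER3 is an auxiliary member of the family. In the kidney, as in other peripheral organs, Per1 and Per2 also respond to glucocorticoids and other systemic signals, and Cry1 is additionally under the control of the ROR activators and REV-ERB repressors.

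Upstream sequences of 4 of the 5 genes are shown because the deleted factor acts through such elements. They were read from RefSeq windows of build GRCm38.p6 that run from 250 bases before to 50 bases after an annotated start, and the 250 bases before the start are printed from 5′ to 3′ on the strand of the gene. No window of Per2 was matched. Capitals mark matches to CACGTG (E-box), CACGTT (a variant called the E-prime-box), TTATGTAA (D-box) or TGACGTCA (cAMP response element), searched on both strands, so that AACGTG is CACGTT read from the other strand. No marked match overlapped another. Of all 32851 windows of this length, 7.15% held CACGTG, 4.68% held CACGTT, 0.938% held TTATGTAA and 1.79% held TGACGTCA.
Per1, chr11:69098699-69098948, plus strand: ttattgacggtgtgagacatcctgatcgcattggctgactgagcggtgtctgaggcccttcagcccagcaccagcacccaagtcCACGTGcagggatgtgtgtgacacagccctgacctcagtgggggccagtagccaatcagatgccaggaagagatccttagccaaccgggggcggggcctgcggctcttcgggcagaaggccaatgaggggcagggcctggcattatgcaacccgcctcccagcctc
Per3, chr4:151044666-151044915, minus strand: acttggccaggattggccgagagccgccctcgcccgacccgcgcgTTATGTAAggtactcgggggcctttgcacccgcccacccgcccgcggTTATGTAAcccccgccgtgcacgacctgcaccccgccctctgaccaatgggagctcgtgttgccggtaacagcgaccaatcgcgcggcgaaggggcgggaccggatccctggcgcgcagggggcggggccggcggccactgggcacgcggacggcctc
Cry1, chr10:85185055-85185304, minus strand: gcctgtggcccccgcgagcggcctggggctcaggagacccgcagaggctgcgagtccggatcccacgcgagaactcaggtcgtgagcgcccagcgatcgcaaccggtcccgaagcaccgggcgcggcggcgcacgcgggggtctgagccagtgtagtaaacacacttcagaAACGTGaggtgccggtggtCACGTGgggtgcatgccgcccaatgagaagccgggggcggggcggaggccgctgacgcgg
Cry2, chr2:92434070-92434319, minus strand: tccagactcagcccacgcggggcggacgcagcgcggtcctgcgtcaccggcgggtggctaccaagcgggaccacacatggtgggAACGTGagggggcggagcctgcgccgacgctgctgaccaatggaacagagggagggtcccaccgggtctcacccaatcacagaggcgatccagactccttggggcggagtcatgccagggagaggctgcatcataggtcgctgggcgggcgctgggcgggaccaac
Cry1 held an E-prime-box 79 bases and an E-box 60 bases before its start, counted to the first base of each match. Cry2 held an E-prime-box and Per1 an E-box, each with its first base 166 bases before the start. For Per1 this holds for the first of 2 windows, and the second, which starts at position 69099902 and is not printed, held no match. Per3 held a pair of D-boxes, which began 205 and 158 bases before the start, and neither E-box form was in its window. These matches describe the letters in the windows and were not tested for binding.

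The 60 libraries held from 17791420 to 20906706 counts on genes. The members were counted with 116 to 891 reads per mouse for Per1, 267 to 2356 for Per2, 149 to 1392 for Per3, 32 to 829 for Cry1 and 261 to 1127 for Cry2. Levels are given as CPM, the count of a gene scaled to a common library size, after TMM correction for composition. The targeted gene is listed as Arntl. Its level was lower in cKOt mice at ZT0 and higher at ZT12 (log2 fold change -0.99 and 2.64, edgeR adjusted p = 1.41e-04 and 4.40e-12). It fell from 48.4 ± 10.2 CPM in control mice to 24.4 ± 1.57 CPM in cKOt mice at ZT0, and at ZT12 it rose from 2.77 ± 1.54 to 17.4 ± 2.01 CPM (mean ± SD, n = 5 mice each). Those values are reads over the whole gene and not over the floxed part, so they are no check of the deletion. Markers of the collecting duct, distal convoluted tubule, thick ascending limb and proximal tubule were all present. The test of the mean was passed by 1 of 3, 1 of 2, 2 of 2 and 4 of 5 of them, where 50% of all genes tested passed. The called markers of the collecting duct (Atp6v1g3) and distal convoluted tubule (Slc12a3) were higher in cKOt mice. Of those of the thick ascending limb 1 was higher and 1 lower, and of the proximal tubule 2 were higher and 2 lower. Chosen after their values were seen, Umod of the thick ascending limb fell by 0.41 (adjusted p = 1.24e-13) and Slc22a6 of the proximal tubule by 0.27 on the log2 scale (adjusted p = 1.14e-10), while Slc5a2 of the proximal tubule rose by 0.16 (adjusted p = 2.18e-07, all by edgeR). The other marker of the thick ascending limb, Slc12a1, rose by 0.12 (edgeR adjusted p = 0.0212). Of markers of cells outside the tubule, 3 of 3 for endothelium (summed level 240.1 to 296.8 CPM in control mice, 191.8 to 280.5 CPM in cKOt mice), 3 of 3 for fibroblasts (27.5 to 115 and 33.0 to 96.2 CPM) and 2 of 3 for macrophages (47.7 to 85.1 and 57.3 to 92.6 CPM) were lower in cKOt mice by the test of the mean, and the part of these cells in the results was not tested. Of all genes tested, 23.2% were lower by the test of the mean. The tested marker of T cells and the 2 of red blood cells were near 0, at levels of at most 1.35 CPM and, summed, 3.27 CPM. The authors had chosen the 5 mice of each group from 6, partly by distance from the other replicates, so the spread between mice may be understated. All 5 members lie on different chromosomes in GENCODE M21 on GRCm38, and their positions are given where each gene is described.

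Over the whole day, both cryptochromes rose and Per3 fell in cKOt mice, with a smaller decrease of Per1. Averaged over the 6 times with equal weight, the log2 fold change of cKOt over control mice was 1.56 for Cry1 (SE 0.045, adjusted p = 5.67e-35), 0.54 for Cry2 (SE 0.026, adjusted p = 1.24e-24), -1.34 for Per3 (SE 0.063, adjusted p = 3.62e-25) and -0.24 for Per1 (SE 0.089, adjusted p = 0.0227). Per2 had a value of -0.07 (SE 0.063, adjusted p = 0.379) and did not pass the test. These adjusted p values are from edgeR's quasi-likelihood test on 60 mice with Benjamini-Hochberg adjustment over the 15546 genes tested, as are all others below unless another test is named. Thus 4 of 5 members passed, where 50% of all genes tested passed, 26.8% of them upward and 23.2% downward. The median absolute log2 fold change was 0.54 for the members and 0.10 for all genes. The batch given in the study's sample list was also used as a covariate in place of the factors of unwanted variation. The values were then 1.57 for Cry1, 0.52 for Cry2, -1.34 for Per3, -0.28 for Per1 and -0.09 for Per2, and the same 4 passed. The Per1 value was no longer past the threshold without the mice numbered 1 (-0.17, adjusted p = 0.174) or 3 (-0.13, adjusted p = 0.262). Over 16 alternatives, its adjusted p ranged from 0.00415 to 0.262.

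**Figure D1:**
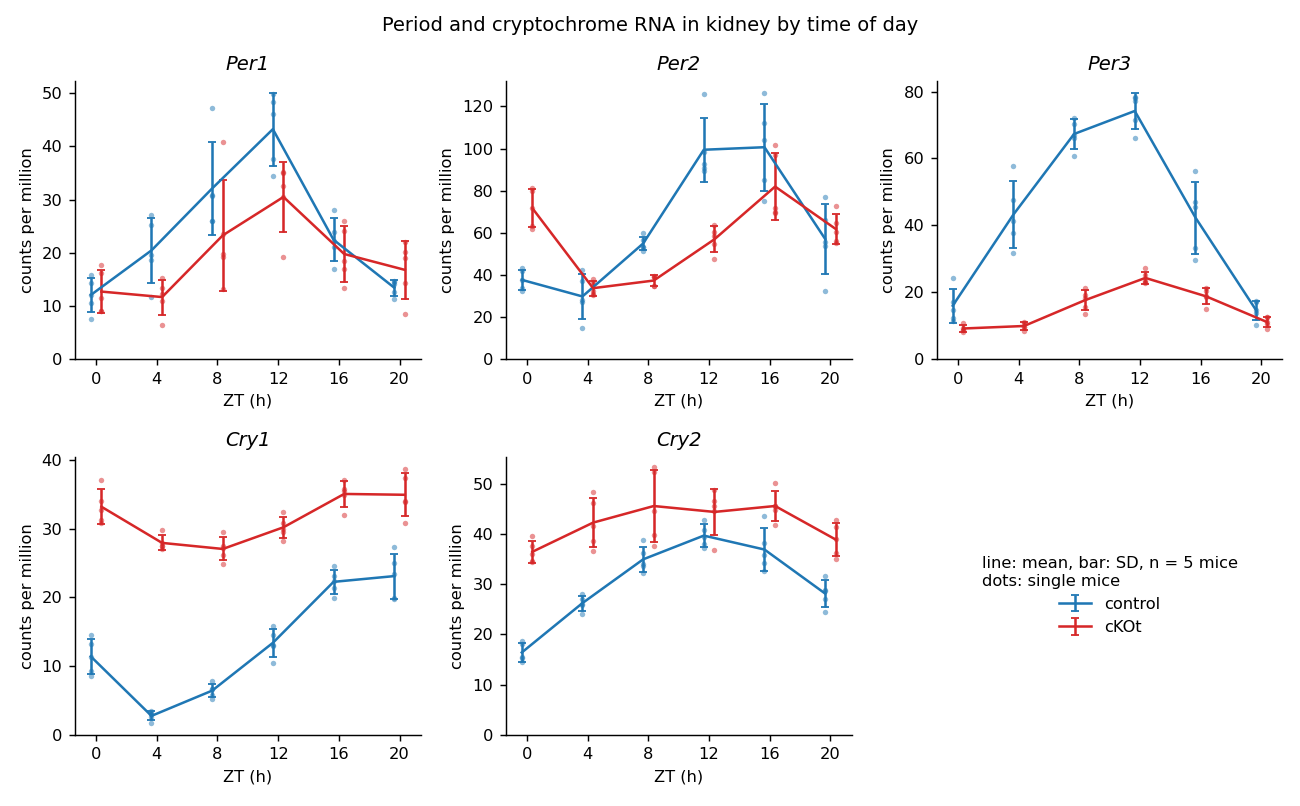
Level of each member in CPM (vertical axis, from 0) against zeitgeber time in hours (horizontal axis), with control mice in blue and cKOt mice in red, dots for single mice and lines with bars for the mean and SD of 5 mice. Cry1 in cKOt mice stays between 24.9 and 38.6 CPM, above the control mice at each time, and Per3 in cKOt mice never exceeds 27.2 CPM where control mice reach 78.3 CPM.

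Whether the difference between genotypes varied with the time of day was tested by the interaction of genotype and time. It passed for Cry1 (adjusted p = 1.66e-18), Cry2 (2.81e-11), Per3 (3.66e-07) and Per2 (5.08e-07), but not for Per1 (0.377). That is 4 of 5 members, where 3.08% of all genes passed. The number of members past the test at single times was 4 at ZT0 (12.1% of all genes), 3 at ZT4 (12.5%), 4 at ZT8 (19.9%), 4 at ZT12 (21%), 3 at ZT16 (19.8%) and 2 at ZT20 (13.8%). By direction, 3 members were higher in cKOt mice at ZT0 (6.63% of all genes) and 1 lower (5.49%), 2 higher at ZT4 (6.2%) and 1 lower (6.34%), 2 higher at ZT8 (10.6%) and 2 lower (9.29%), 2 higher at ZT12 (10.3%) and 2 lower (10.8%), and 2 higher at ZT16 (10%) and 1 lower (9.75%). At ZT20 both called members were higher (5.98%), where 7.79% of all genes were lower. The ranges of the 2 genotypes did not overlap for 4 members at ZT0 (7.3% of all genes), 3 at ZT4 (11.1%), 3 at ZT8 (9.49%), 3 at ZT12 (9.73%), 2 at ZT16 (9.04%) and 2 at ZT20 (6.86%).

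**Figure D2:**
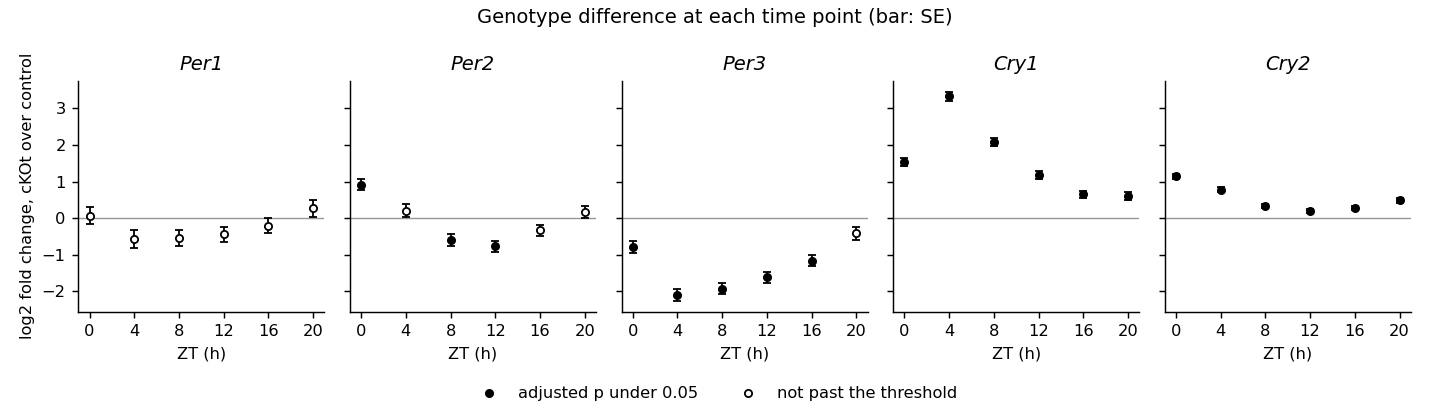
Log2 fold change of cKOt over control mice (vertical axis) at each zeitgeber time (horizontal axis) for the 5 members, with bars for the SE, which are smaller than the dot where none is seen, and filled dots for an adjusted p under 0.05. The values of Cry1 run from 3.33 at ZT4 to 0.60 at ZT20, those of Per3 are below 0 at all 6 times, and those of Per2 change sign with the time of day.

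Cry1 (ENSMUSG00000020038, chromosome 10 from 85131700 to 85185064, minus strand), the cryptochrome that peaks latest in the control mice, had the largest change of the members. Its lowest levels were found in control mice at ZT4, at 1.75, 2.53, 2.97, 3.05 and 3.47 CPM, whereas cKOt mice at that time had 27.0, 27.4, 27.5, 27.9 and 29.8 CPM. All cKOt mice were far above all control mice, and the means differed 10.2-fold, which gave a log2 fold difference of 3.33 (SE 0.13, edgeR adjusted p = 3.81e-27). The control value rested on 32 to 67 reads per mouse. At ZT8 the control mice had 5.25, 5.77, 6.59, 6.67 and 7.87 CPM and the cKOt mice 24.9, 26.2, 27.2, 27.5 and 29.4 CPM, which gave a log2 fold difference of 2.07 (SE 0.11, edgeR adjusted p = 3.68e-21). At ZT12, 10.5, 13.0, 13.1, 14.5 and 15.9 CPM were measured in control and 28.3, 29.6, 30.0, 30.8 and 32.4 CPM in cKOt mice, and the value was 1.17 (SE 0.10, edgeR adjusted p = 2.17e-13). The gap narrowed in the dark phase as the control level climbed.

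At ZT16 Cry1 reached 19.9, 21.3, 22.4, 23.2 and 24.5 CPM in control mice, against 32.1, 34.9, 35.5, 35.8 and 37.1 CPM in cKOt mice, which gave a log2 fold difference of 0.66 (SE 0.0995, edgeR adjusted p = 8.82e-07). At ZT20 the control mice were at their highest, at 19.8, 19.9, 23.4, 25.0 and 27.4 CPM, and the cKOt mice had 30.8, 33.8, 34.0, 37.4 and 38.6 CPM, with a value of 0.60 (SE 0.10, edgeR adjusted p = 9.74e-06). At ZT0 the control level had dropped to 8.52, 9.34, 11.4, 13.3 and 14.5 CPM, while cKOt mice remained at 30.8, 31.3, 32.7, 34.0 and 37.1 CPM, a difference of 1.54 (SE 0.11, edgeR adjusted p = 4.30e-17). No cKOt mouse was within the range of the control mice at any of the 6 times. The lowest cKOt mouse of the whole day, at 24.9 CPM, was below the highest control mouse, at 27.4 CPM, so the ranges pooled over times overlapped. Group means ranged 8.40-fold over the day in control mice (from 2.75 ± 0.654 CPM at ZT4 to 23.1 ± 3.27 CPM at ZT20) and 1.30-fold in cKOt mice (from 27.0 ± 1.68 CPM at ZT8 to 35.1 ± 1.86 CPM at ZT16, SD, n = 5 each).

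Cry2 (ENSMUSG00000068742, chromosome 2 from 92403646 to 92434043, minus strand), the other cryptochrome and in many tissues the less rhythmic of the pair, was raised at all 6 times, most at the start of the light phase. Its locus overlaps D930015M05Rik, a transcript annotated on the opposite strand, and the libraries were stranded. At ZT0 the control mice had 14.4, 15.3, 15.5, 18.1 and 18.6 CPM and the cKOt mice 34.4, 34.6, 35.9, 37.6 and 39.6 CPM, which gave a log2 fold difference of 1.14 (SE 0.0667, edgeR adjusted p = 7.40e-20). At ZT4 the values were 24.1, 25.8, 26.1, 27.0 and 28.1 CPM in control and 36.6, 38.5, 41.5, 46.1 and 48.3 CPM in cKOt mice, with a change of 0.78 (SE 0.0672, edgeR adjusted p = 2.11e-13). The 2 genotypes did not overlap at either time.

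Later in the light phase the gap in Cry2 narrowed. At ZT8 Cry2 was measured at 32.3, 33.5, 34.0, 36.1 and 38.7 CPM in control and 37.7, 39.8, 44.4, 52.3 and 53.4 CPM in cKOt mice (0.33 (SE 0.0632, edgeR adjusted p = 7.12e-05)), and 1 control mouse lay within the cKOt range. At ZT12, with 37.2, 38.0, 39.3, 40.8 and 42.8 CPM in control and 36.7, 44.4, 45.5, 46.5 and 48.6 CPM in cKOt mice, the ranges overlapped and the log2 fold change was 0.20 (SE 0.0628, edgeR adjusted p = 0.0164). This is the weakest of the calls on Cry2. It was lost in 6 of 16 alternatives, among them the fit without factors of unwanted variation (0.16, adjusted p = 0.241), the fit with batch in their place (0.16, adjusted p = 0.238) and the fit without control mouse 2 of ZT12 (0.18, adjusted p = 0.0517), and the range of its adjusted p was 0.00654 to 0.241. In the dark phase, Cry2 at ZT16 was 32.7, 34.2, 35.7, 38.2 and 43.5 CPM in control and 41.7, 44.8, 45.5, 45.5 and 50.1 CPM in cKOt mice, again with overlap and a change of 0.28 (SE 0.0628, edgeR adjusted p = 6.77e-04). At ZT20 there were 24.4, 27.0, 28.7, 28.9 and 31.6 CPM in control mice and 35.0, 36.2, 39.0, 41.3 and 42.8 CPM in cKOt mice (0.49 (SE 0.0649, edgeR adjusted p = 6.88e-08)), without overlap. Over the day, group means of Cry2 ranged 2.42-fold in control and 1.25-fold in cKOt mice.

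Per3 (ENSMUSG00000028957, chromosome 4 from 151003652 to 151044665, minus strand) was the period gene that fell most. Its locus overlaps Camta1 on the same strand, and reads that fit both genes are left out by the counting, which could lower the level in both genotypes. At ZT4 control mice had 31.7, 37.7, 41.4, 47.7 and 57.6 CPM and cKOt mice 8.37, 9.65, 9.70, 10.8 and 11.0 CPM, which gave a log2 fold difference of -2.10 (SE 0.17, edgeR adjusted p = 9.75e-15). At ZT8 the levels were 60.8, 66.1, 67.1, 70.4 and 72.2 CPM in control and 13.6, 15.7, 18.3, 19.0 and 21.3 CPM in cKOt mice, and the change was -1.93 (SE 0.15, edgeR adjusted p = 2.02e-15). At both times every cKOt mouse was below every control mouse.

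The highest Per3 level of the day was reached by both genotypes at ZT12, at 66.0, 71.4, 77.2, 78.0 and 78.3 CPM in control and 22.7, 22.9, 23.5, 25.0 and 27.2 CPM in cKOt mice, which gave a log2 fold difference of -1.61 (SE 0.15, edgeR adjusted p = 3.48e-13). At ZT16 it was 29.7, 33.3, 45.6, 46.9 and 56.1 CPM in control mice and 15.0, 18.4, 18.9, 20.3 and 21.2 CPM in cKOt mice (-1.17 (SE 0.15, edgeR adjusted p = 1.57e-08)). The genotypes were close together around the trough. At ZT20 the control mice had 10.3, 13.8, 14.6, 17.1 and 17.3 CPM and the cKOt mice 8.99, 10.4, 11.0, 12.6 and 12.6 CPM, with overlapping ranges and a value of -0.42 (SE 0.17, edgeR adjusted p = 0.0878) that did not pass the test. At ZT0 the values were 11.4, 12.4, 14.7, 17.2 and 24.2 CPM in control and 8.04, 8.63, 8.73, 9.41 and 10.9 CPM in cKOt mice, and all cKOt mice were below the control mice (-0.79 (SE 0.17, edgeR adjusted p = 5.03e-04)). Per3 thus fell at 5 of 6 times, each time without overlap, and without the mice numbered 3 its ZT20 difference passed as well (-0.57, adjusted p = 0.0440).

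Per2 (ENSMUSG00000055866, chromosome 1 from 91415982 to 91459324, minus strand), a scaffold of the repressor complex, did not pass the test of the mean over the day but differed in opposite directions at different times. At ZT0 control mice had 32.3, 33.9, 37.4, 41.6 and 43.1 CPM and cKOt mice 62.0, 63.2, 71.7, 80.0 and 81.3 CPM, so that all cKOt mice were higher, which gave a log2 fold difference of 0.91 (SE 0.16, edgeR adjusted p = 2.03e-05). At ZT8 control mice had 51.2, 53.4, 53.5, 56.6 and 59.8 CPM and cKOt mice 34.5, 34.8, 38.8, 39.2 and 39.3 CPM, and at this time all cKOt mice were lower (-0.59 (SE 0.16, edgeR adjusted p = 0.00416)). At ZT12 the order was the same, with 89.2, 90.9, 92.5, 98.5 and 126 CPM in control and 47.5, 54.6, 58.3, 60.4 and 63.7 CPM in cKOt mice (-0.77 (SE 0.15, edgeR adjusted p = 8.73e-05)). One control mouse at ZT12, replicate 2, stood apart from its group at 126 CPM.

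The remaining times showed no Per2 difference past the test. Levels at ZT4 were 14.7, 26.9, 27.9, 37.2 and 42.1 CPM in control and 30.4, 30.9, 32.2, 36.7 and 38.2 CPM in cKOt mice, which gave a log2 fold difference of 0.20 (SE 0.17, edgeR adjusted p = 0.495). At ZT16 they were 75.2, 85.2, 104, 112 and 126 CPM and 69.5, 70.0, 71.6, 97.1 and 101 CPM, with a value of -0.33 (SE 0.15, edgeR adjusted p = 0.117). At ZT20 control mice had 32.5, 53.8, 55.7, 66.0 and 77.2 CPM, which span the whole cKOt range of 55.0, 56.0, 60.5, 64.6 and 72.7 CPM (0.17 (SE 0.16, edgeR adjusted p = 0.556)). The trough of Per2 lay at ZT4 in both genotypes, at 29.8 ± 10.6 CPM in the controls and 33.7 ± 3.55 CPM in the mutants (SD, 5 mice per group).

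Per1 (ENSMUSG00000020893, chromosome 11 from 69095217 to 69109960, plus strand), which like Per2 belongs to the scaffold and is an immediate responder to cAMP and glucocorticoid signals, was the member with the widest scatter between cKOt mice. The SD within groups averaged 30.9% of the mean in cKOt and 21.4% in control mice. At ZT4 control mice had 11.7, 18.6, 19.7, 25.2 and 27.1 CPM and cKOt mice 6.49, 11.0, 12.3, 13.3 and 15.3 CPM, which gave a log2 fold difference of -0.57 (SE 0.24, edgeR adjusted p = 0.104). At ZT8 there were 25.9, 25.9, 30.6, 30.9 and 47.2 CPM in control and 13.2, 19.2, 19.8, 23.5 and 40.8 CPM in cKOt mice (-0.54 (SE 0.21, edgeR adjusted p = 0.0601)), and replicate 3 of the control mice stood apart at 47.2 CPM. The peak at ZT12 was 34.4, 37.6, 46.0, 48.5 and 49.8 CPM in control and 19.3, 30.5, 32.5, 35.0 and 35.2 CPM in cKOt mice (-0.44 (SE 0.21, edgeR adjusted p = 0.128)). The ranges overlapped at each of these times and none of the differences passed.

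In the dark phase and at lights on, Per1 values of the genotypes were mixed. At ZT16 the control mice had 17.0, 21.1, 22.2, 23.9 and 28.0 CPM and the cKOt mice 13.4, 16.9, 18.4, 24.1 and 26.1 CPM (-0.20 (SE 0.22, edgeR adjusted p = 0.564)). At ZT20 there were 11.2, 12.6, 14.2, 14.4 and 14.8 CPM in control and 8.47, 14.3, 18.9, 20.2 and 22.0 CPM in cKOt mice (0.26 (SE 0.23, edgeR adjusted p = 0.515)). At ZT0 the values were 7.62, 10.6, 12.0, 14.3 and 15.8 CPM and 9.07, 9.12, 11.5, 16.2 and 17.7 CPM (0.06 (SE 0.23, edgeR adjusted p = 0.913)). Of the 6 single times, none passed for Per1 in edgeR, 3 had an unadjusted p under 0.05, and 1 passed with limma-trend and none with DESeq2. The ZT4 difference passed without factors of unwanted variation (-0.81, adjusted p = 0.0199) and with batch in their place (-0.87, adjusted p = 0.00891), within a range of 0.00891 to 0.288 over 16 alternatives. The ZT8 difference passed with limma-trend (-0.61, adjusted p = 0.0389), with the replicate number as a block (-0.57, adjusted p = 0.0476) and without the mice numbered 5 (-0.88, adjusted p = 0.00354), within a range of 0.00354 to 0.577. Without the same mice, the ZT12 difference passed too (-0.63, adjusted p = 0.0312).

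A curve with a period of 24 h was fitted to the logCPM values of each genotype, and its peak-to-trough amplitude and peak time are given with their SE. All 5 members were rhythmic in control mice, where 34.8% of all genes passed, and all 5 were also rhythmic in cKOt mice, where 30.3% passed. For Cry1 the amplitude was 2.84 ± 0.10 log2 units with a peak at ZT 17.3 ± 0.14 h in control mice, and 0.42 ± 0.10 log2 units at ZT 18.9 ± 0.93 h in cKOt mice (adjusted p = 1.23e-28 and 2.19e-04). The Cry2 amplitude went from 1.15 ± 0.052 at ZT 12.3 ± 0.17 h to 0.31 ± 0.052 log2 units at ZT 10.9 ± 0.65 h (adjusted p = 2.93e-23 and 1.65e-05). On the log2 scale the cryptochromes therefore kept 0.147 and 0.269 of their control amplitude. This scale measures fold changes over the day, and the level of both was higher in cKOt mice. In CPM, group means ran from 2.75 to 23.1 (control) and 27.0 to 35.1 (cKOt) for Cry1. Those of Cry2 ran from 16.4 to 39.6 and 36.4 to 45.5, and those of Per3 from 14.6 to 74.2 and 9.15 to 24.3. The order of the members by kept amplitude therefore depends on the scale.

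The ratios of log2 amplitude were higher for the period genes, and they were not tested between members. The fitted peak was later in cKOt mice for the period genes and also for Cry1 (by 1.69 ± 0.94 h), and earlier for Cry2 (-1.45 ± 0.67 h). Per3 had 2.58 ± 0.13 log2 units at ZT 10.0 ± 0.20 h in control mice and 1.46 ± 0.13 at ZT 12.4 ± 0.35 h in cKOt mice, a delay of 2.37 ± 0.40 h. Per2 had 1.87 ± 0.14 log2 units at ZT 14.2 ± 0.29 h in control mice and 1.14 ± 0.14 at ZT 18.1 ± 0.47 h in cKOt mice, a delay of 3.88 ± 0.55 h. Per1 had 1.84 ± 0.19 log2 units at ZT 10.9 ± 0.40 h in control mice and 1.25 ± 0.19 at ZT 12.3 ± 0.58 h in cKOt mice, with a peak 1.42 ± 0.70 h later. The ratios of cKOt to control log2 amplitude were 0.566 for Per3, 0.609 for Per2 and 0.678 for Per1. The difference of the 24 h rhythm between genotypes, which covers amplitude and peak time together, passed for Cry1 (adjusted p = 4.07e-20), Cry2 (3.22e-12), Per3 (1.98e-08) and Per2 (2.19e-08) but not for Per1 (0.107), that is 4 of 5 members where 5.29% of all genes passed. Without the mice numbered 5 the Per1 value passed as well (adjusted p = 0.0153), and its range over 15 alternatives was 0.0153 to 0.419. The 15546 genes were also ranked by amplitude, taken here from the edgeR coefficients and not from the curve fitted to logCPM. Cry1 went from place 20 in control mice to 2766 in cKOt mice and Cry2 from 321 to 4321. Per3 went from 26 to 124, Per1 from 78 to 202 and Per2 from 80 to 246.

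**Figure D3:**
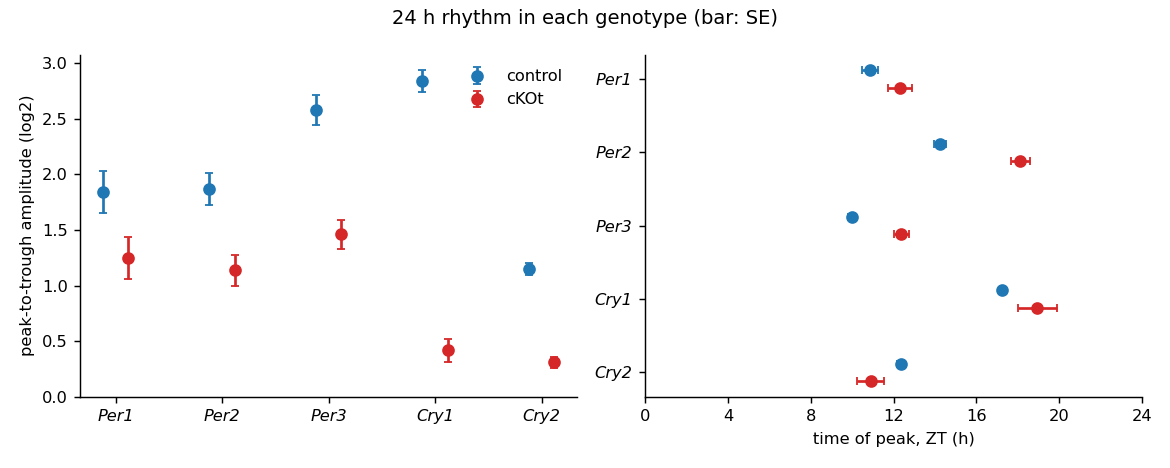
Left, peak-to-trough amplitude of the fitted 24 h curve in log2 units (vertical axis, from 0) for each member. Right, time of the fitted peak in zeitgeber hours (horizontal axis). Blue dots are control and red dots cKOt mice, with bars for the SE. The amplitude of Cry1 is 2.84 in control and 0.42 in cKOt mice, and the peak of Per2 moves from 14.2 to 18.1 h.

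Model selection after dryR, which weighs 5 models of rhythm by the Bayesian information criterion (BIC), placed Per2, Per3 and Cry2 in model 5, an altered rhythm, with BIC weights of 1.00, 1.00 and 0.965. Without the mice numbered 5, Cry2 was not assigned (highest weight 0.552). Neither Per1 nor Cry1 reached the weight of 0.65 needed. Model 5 had the highest weight for Per1, at 0.526. Per1 was in model 4, an unaltered rhythm, without the mice numbered 2, 3 or 4, and in model 5 without those numbered 5. For Cry1 the highest weight, 0.619, was that of model 2, a rhythm in control mice only, although the small Cry1 rhythm in cKOt mice passed the test of that genotype alone. A component with a period of 12 h was present in control mice for Cry1 (amplitude 0.83 ± 0.11 log2 units, adjusted p = 1.50e-05) and Cry2 (0.37 ± 0.052, adjusted p = 2.39e-04), that is 2 of 5 members where 0.579% of all genes passed. None of the 5 passed in cKOt mice, where 0.907% of all genes passed, although 2 had an unadjusted p under 0.05. No other tool was run on this component. With the replicate number as a block, the Per2 component in cKOt mice passed (0.51, adjusted p = 0.0493, within a range of 0.0493 to 0.272 over 8 alternatives). The Cry2 component was not past the threshold without the mice numbered 2 (0.34, adjusted p = 0.0576), and that of Per3 in control mice passed without the mice numbered 5 (0.64, adjusted p = 0.0157). Whether the 12 h component differed between genotypes was not tested.

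The order of the group means within a genotype was compared between neighbours by a two-sided exact permutation test of 5 against 5 mice, whose smallest p is 0.00794, with Benjamini-Hochberg adjustment over 50 pairs. The order itself came from the same values that were tested. Of the 50 pairs, 12 differed, all at the smallest p (adjusted exact p = 0.0331). The other 38 were not resolved, which does not show that their levels were equal. The Cry1 order in control mice was ZT20, ZT16, ZT12, ZT0, ZT8 and ZT4, and the steps from ZT16 to ZT12, ZT0 to ZT8 and ZT8 to ZT4 were resolved. In cKOt mice the Cry1 order was ZT16, ZT20, ZT0, ZT12, ZT4 and ZT8, and none of the 5 steps was resolved, with an unadjusted exact p under 0.05 for 2 of them. Control mice had Cry2 in the order ZT12, ZT16, ZT8, ZT20, ZT4 and ZT0, with steps resolved from ZT8 to ZT20 and ZT4 to ZT0, and no step was resolved in cKOt mice, adjusted or not (ZT16, ZT8, ZT12, ZT4, ZT20 and ZT0).

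For Per3 the control order was ZT12, ZT8, ZT4, ZT16, ZT0 and ZT20, resolved from ZT8 to ZT4 and from ZT16 to ZT0. The cKOt order was ZT12, ZT16, ZT8, ZT20, ZT4 and ZT0, resolved from ZT12 to ZT16 and from ZT8 to ZT20. Per2 ran ZT16, ZT12, ZT20, ZT8, ZT0 and ZT4 in control mice, with steps from ZT12 to ZT20 and ZT8 to ZT0 resolved. In cKOt mice ZT0 moved up to the second place (ZT16, ZT0, ZT20, ZT12, ZT8 and ZT4), and the step from ZT12 to ZT8 was the resolved one. For Per1 no neighbours were resolved in either genotype, with 2 steps under an unadjusted exact p of 0.05 in control and 0 in cKOt mice, although its control means ran from 43.3 ± 6.87 CPM at ZT12 to 12.1 ± 3.19 CPM at ZT0 (SD, n = 5 each).

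Levels of different genes were compared per kilobase (kb) of annotated exon, since longer transcripts collect more reads. The length is that of all annotated exons of a gene together and may exceed that of the transcript present in kidney. The order of genes with close values may depend on this choice, and no other length was tried. Over all times, Per2 was the most abundant member in control mice at 10.8 ± 5.24 CPM per kb (mean ± SD over 30 mice of all times), followed by Cry2 at 4.80 ± 1.31, Per3 at 4.47 ± 2.50, Per1 at 4.26 ± 2.16 and Cry1 at 3.96 ± 2.36 CPM per kb. In cKOt mice Per2 stood at 9.77 ± 3.28 CPM per kb and Cry1 at 9.40 ± 1.13, ahead of Cry2 at 6.67 ± 0.851, Per1 at 3.40 ± 1.54 and Per3 at 1.57 ± 0.612. The SD of these values holds the daily variation as well as that between mice, and the order turned with the time of day. In control mice Cry1 was second to Per2 at ZT16 (6.66 CPM per kb) and ZT20 (6.91), and at ZT12 Per3 (7.72) and Per1 (7.68) were above Cry2 (6.27). In cKOt mice Cry1 (8.36 and 8.10) and Cry2 (6.68 and 7.20) were above Per2 (5.75 and 6.37 CPM per kb) at ZT4 and ZT8. The ratio of Cry1 to Cry2 within a mouse swung in control mice from 0.200 ± 0.0520 at ZT4 to 1.56 ± 0.188 at ZT20, and stayed between 1.14 ± 0.156 at ZT8 and 1.73 ± 0.103 at ZT0 in cKOt mice (SD, n = 5). The sum of the period genes over that of the cryptochromes was 1.20 ± 0.245 at ZT20 and 3.16 ± 0.372 at ZT12 in control mice. In cKOt mice it was lowest at ZT4, at 0.588 ± 0.0513, and highest at ZT16, at 1.10 ± 0.137. At ZT12 the ratio of control mice was 2.85 to 3.74 and that of cKOt mice 0.957 to 1.15. The ratios are descriptions of RNA per annotated length, and no test was run on them.

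**Figure D4:**
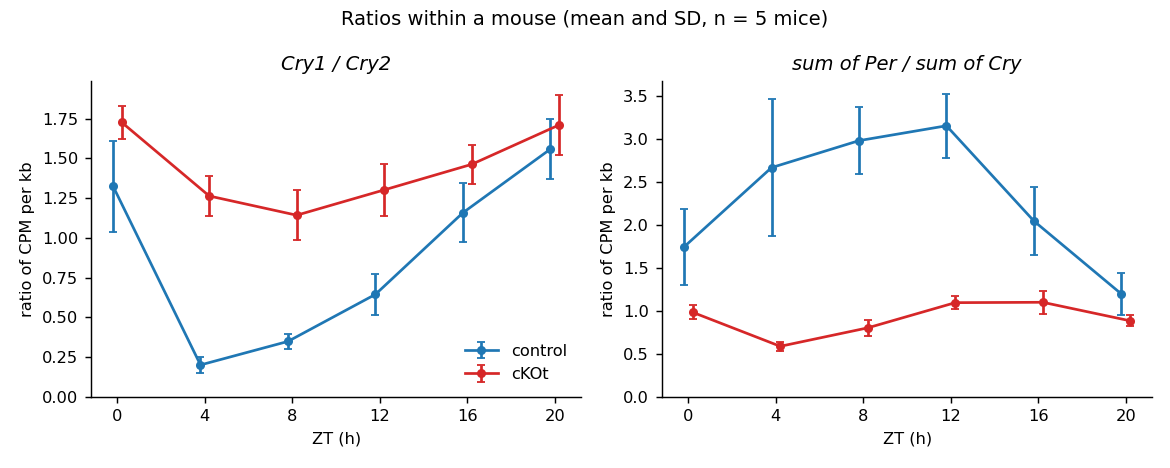
Ratio of Cry1 to Cry2 (left) and of the summed period genes to the summed cryptochromes (right), in CPM per kb of exon within a mouse (vertical axes, from 0), against zeitgeber time in hours. Lines join the means of 5 control (blue) or 5 cKOt (red) mice and bars are the SD. The left ratio is 0.200 in control and 1.26 in cKOt mice at ZT4, and the right ratio is 3.16 in control and 1.10 in cKOt mice at ZT12.

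The factors that regulate these repressors were taken from lists of genes by role. Of 16 tested genes among other clock transcription factors, 5 were higher (26.8% of all genes), 8 lower (23.2%) and 3 not called in the mean over the day, with a median log2 fold change of -0.08 against 0.01 for all genes. Npas2, a partner that can stand in for CLOCK, had the largest change at 3.45 (SE 0.10, adjusted p = 1.06e-34). Ciart, a repressor of CLOCK:BMAL1, fell by 2.63 on the log2 scale (adjusted p = 5.52e-21), Nr1d2, which encodes REV-ERB beta, fell by 1.99 (adjusted p = 9.72e-35), and Dbp, an activator at D-boxes, fell by 1.45 (adjusted p = 3.80e-19). The 24 h rhythm passed for 14 of these 16 genes in control mice (34.8% of all genes) and 10 in cKOt mice (30.3%), and its difference for 12 (5.29%). Rorb was below the level needed for testing.

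Genes that modify, degrade or accompany the PER and CRY proteins formed another list. Of 21 tested, 8 were higher (26.8% of all genes), 4 lower (23.2%) and 9 not called, with a median log2 fold change of 0.02, so that 12 of 21 were called where 50% of all genes were. Usp2, a deubiquitinase that acts on clock proteins, fell by 0.41 on the log2 scale (adjusted p = 3.16e-13). Btrc, an F-box protein that targets PER, rose by 0.22 (adjusted p = 1.52e-09), and Prkaa2, a catalytic subunit of AMP kinase that marks cryptochromes for degradation, fell by 0.21 (adjusted p = 1.04e-09). The interaction of genotype and time passed for 2 of the 21 (3.08% of all genes). Among 13 genes of the CREB and glucocorticoid input to the period genes, 4 were higher (26.8% of all genes), 5 lower (23.2%) and 4 not called, with a median of -0.04. Sik1, a kinase that restrains CREB coactivators, fell by 0.98 (adjusted p = 2.19e-23) and Fkbp5, a target of the glucocorticoid receptor, by 0.40 (adjusted p = 9.54e-06). Zbtb16, also a glucocorticoid target, rose by 0.86 (adjusted p = 3.46e-06). Sgk1, a kinase induced by the same receptor and by aldosterone, rose by 0.21 (adjusted p = 0.0198), a call that was lost in 4 of 16 alternatives, with a range of 0.0104 to 0.118.

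The genes most like each member were found by Pearson correlation of logCPM over the 60 mice. The mice share the genotype and the time of day, so these coefficients describe both together and carry no test. Among the genes with the highest coefficients for Cry1 were Lingo4 (r = 0.853) and Rhobtb1 (0.850), and the lowest was that of Gjb2 (-0.826), a connexin. Cry2 was nearest to Cyp2d22 (0.747), Ttll13 (0.712) and Dclre1b (0.687) and farthest from Acsl3 (-0.750), a fatty acid ligase. Per3 followed Tef (0.936), a D-box activator, Ciart (0.934) and Nr1d2 (0.925), and was opposed to Rdh10 (-0.910), a retinol dehydrogenase. Per2 followed Tsc22d3 (0.838), a glucocorticoid-induced gene, Cipc (0.821), a CLOCK-interacting repressor, and Noct (0.699), a rhythmic phosphatase of nicotinamide cofactors, with Tbxas1 (-0.719), thromboxane synthase, at the other end. Per1 was nearest to Itprip (0.868), Map3k6 (0.819) and Xdh (0.818), xanthine dehydrogenase, and farthest from Acmsd (-0.755), an enzyme of tryptophan breakdown. Among the members themselves, the highest coefficient was that of Per1 with Per3 (0.732) and the lowest that of Per3 with Cry1 (-0.627), while Cry1 with Cry2 gave 0.515.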

How the data were processed

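Kidney RNA of 60 mice was sequenced by the authors as stranded poly(A) libraries. Per the labels and the submitters' processing notes, reads were trimmed with cutadapt 1.8, aligned to GRCm38 with STAR 2.5.3a and counted per Ensembl gene with HTSeq 0.9.1. The deposited values are whole-number counts per gene, not normalized and not pooled. Lines outside genes (no feature 7.17% to 10.6%, ambiguous 0.953% to 1.27% of reads on or between genes) were left out. Symbols, positions and exon lengths were from GENCODE M21 (55154 of 55335 genes matched), and the Ensembl release used for counting is not given in the sources used here.

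A gene was kept where any sample reached 1 CPM (15546 genes). They were fitted with edgeR 4.0.16 in R 4.3.3, with TMM library sizes, 12 groups and 2 RUVs factors of unwanted variation, and tested by the quasi-likelihood F test with Benjamini-Hochberg adjustment over all of them at 0.05. The RUVs step and the dryR model choice were coded again here (logCPM prior count 2, BIC weight 0.65). Amplitudes were fitted by least squares, except for the ranks of amplitude, which used the edgeR coefficients. The methods of the study used limma, which was an alternative here (limma 3.58.1, with DESeq2 1.42.0 also tried). Replicates are separate mice, and no 2 files of a group were identical (120 pairs). One deposited cKOt sample of ZT16 that the study's sample list marks for removal was kept. The procedure was tested on simulated data. The members and the gene lists were chosen with earlier results of these data known. The genes named are the members, Arntl, from each list the 4 largest absolute mean changes past the threshold, and for each member the 3 highest and the 1 lowest correlation among genes with a mean of at least 1 CPM. Some genes covered by this rule are not reported here.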

Additional observations from a re-analysis of the deposited data

Results flagged for a closer look

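In 60 groups of 5 mice, 12 for each member, 2 values stood apart from the others of their group by Dixon's criterion, where chance gives about 1 in 20. These were Per1 in control replicate 3 of ZT8, at 47.2 CPM where the other 4 control mice had 25.9 to 30.9 CPM, and Per2 in control replicate 2 of ZT12, at 126 CPM where the others had 89.2 to 98.5 CPM. Without the first mouse the Per1 difference at ZT8 had a log2 fold change of -0.37 (adjusted p = 0.244), and without the second the Per2 difference at ZT12 was -0.67 (adjusted p = 0.00103, both by edgeR's quasi-likelihood test).

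The genotype difference varied between time points for Per2 (edgeR adjusted p = 5.08e-07), Per3 (3.66e-07), Cry1 (1.66e-18) and Cry2 (2.81e-11). The 24 h rhythm differed between genotypes for Per2 (edgeR adjusted p = 2.19e-08), Per3 (1.98e-08), Cry1 (4.07e-20) and Cry2 (3.22e-12). Per2 was higher in all cKOt mice than in all control mice at ZT0 and lower at ZT8 and ZT12.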

How the results depend on the processing

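Of 945 values of the members recomputed under alternatives, rhythm models not counted, 924 kept their direction and their side of the threshold. The rhythm model stayed the same in 12 of 12 alternatives for Per2 and Per3, 11 for Cry2, 7 for Per1 and 6 for Cry1. The interaction of genotype and time and the 24 h rhythm within each genotype kept their side for all 5 members in each alternative run. The fits without control ZT8 replicate 3 and without control ZT12 replicate 2 were chosen after seeing the data. For values that did not keep their side, the cause was not tested. Over the fits without 1 replicate number or without 1 of the 2 mice just named, the log2 fold changes ran from -0.32 to -0.13 for Per1 in the mean. They ran from -0.13 to 0.24 for Per1 at ZT0 (reversed to -0.11 and -0.13 without replicates 2 and 4, not called in either). For Per1 they ran from -0.88 to -0.21 at ZT8 and from -0.63 to -0.31 at ZT12. The range was 0.15 to 0.25 for Cry2 at ZT12 and -0.57 to -0.30 for Per3 at ZT20. In the same fits the adjusted p of the Per1 rhythm difference ran from 0.0153 to 0.419. Of these fits, only those without 1 replicate number were run for the 12 h component. Its amplitude in control mice ran from 0.34 to 0.42 for Cry2 and from 0.35 to 0.69 for Per3, and 1 to 3 members had it in control mice. The mean difference of Xdh, not called, ran from -0.025 to 0.036 and reversed without replicate 3. Without factors of unwanted variation, Cry2 at ZT12 was 0.16 and Per1 at ZT4 -0.81, and with batch in their place they were 0.16 and -0.87. Cry2 at ZT12 was 0.18 without control ZT12 replicate 2, and Per1 at ZT8 was -0.61 with limma-trend. Among the fits without 1 replicate number, Per1 was in model 4, an unaltered rhythm, without replicate 2, 3 or 4 (BIC weights 0.681, 0.704 and 0.851). Per1 was in model 5 without replicate 5 (0.919). Cry1 was in model 2 without replicate 2, 3, 4 or 5, and Cry2 was unassigned without replicate 5 (highest weight 0.552). At a BIC weight of 0.5, Per1 was in model 5 and Cry1 in model 2, and without the marked sample Cry1 was in model 2.

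The mean correlation of residuals showed little sign of pairing by replicate number, at 0.0043 for mice of the same number and -0.0010 for others. This average was not tested. The mice fell in 6 batches of 9 to 12. The mean correlation was 0.036 for mice of the same batch and -0.0070 for mice of different batches. With the replicate number as a block, 465 genes passed the interaction test in place of 479, Per1 at ZT8 passed (-0.57), and 1 member (Per2, 12 h amplitude 0.51) in place of 0 passed for the 12 h component in cKOt mice. No other call on a member changed with the block.

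The counts over all genes moved more than the members did. Without factors of unwanted variation or with batch in their place, the interaction passed for 263 or 312 genes (479 as reported), the difference at ZT0 for 983 or 1130 (1884), at ZT8 for 2013 or 1991 (3095), at ZT16 for 1853 or 1829 (3071) and at ZT20 for 1407 or 1419 (2140), and with batch the difference at ZT4 for 3091 (1950). The 24 h rhythm in cKOt mice passed for 2853 or 3097 genes (4714), its difference for 422 or 542 (822), and the 12 h component for 39 or 31 (90) in control and 12 or 19 (141) in cKOt mice. Without 1 replicate number or 1 of the 2 mice named above, the interaction passed for 233 to 473 genes and the rhythm difference for 487 to 804. The 12 h component was not run without either of those 2 mice. Without 1 replicate number it passed for 7 to 69 genes in control and 20 to 79 in cKOt mice.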
